A study of Mus musculus with 32 samples.

Results

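The 32 KPC36 tumours of this mouse experiment were split by the RNA level of 5 hypoxia-induced genes into 16 hypoxia-high and 16 hypoxia-low tumours. The score of a tumour was the mean of log2(CPM + 1) over Car9, Ndrg1, Egln3, Ankrd37 and Slc2a1, where CPM is the count of a gene scaled to a common library total. In each of 4 treatment groups the 4 highest of 8 libraries formed the hypoxia-high class and the other 4 the hypoxia-low class, so all 32 libraries belong to 1 of the classes. The libraries of each class were thus chosen by the measured levels of these 5 genes, whose values are described without a test, and oxygen itself was not part of the data used here. All other genes were compared between the classes with the treatment group as a block.

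KPC36 is the cell line named in the labels as the source of the tumours, and KPC lines come from mouse models of pancreatic cancer. The groups were carbon-ion controls (carbon_ctrl), tumours irradiated with carbon ions (carbon_treated), photon controls (photon_ctrl) and tumours irradiated with photons (photon_treated), with 8 libraries each. The controls were untreated, and samples came from days 4 and 7, but the labels do not give the day of a single library, so the days may be unevenly spread over the classes. Neither the genotype of the line nor the strain or age of the mice is stated. All groups share the cell line, and nothing states whether libraries of 1 group came from separate mice, so p-values measure the spread between these samples. The label names the cell type as malignant, yet the RNA came from pieces of tumour. Markers of epithelial cells and of stroma were both present, with Krt18 at 626 to 1228 CPM and the collagen gene Col3a1 at 1369 to 8022 CPM in the hypoxia-high tumours. In such bulk samples fewer cells of a type and less RNA per cell cannot be told apart.

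Cells sense oxygen through prolyl hydroxylases (Egln1, Egln2 and Egln3), which mark the alpha subunits Hif1a and Epas1 for destruction by the Vhl ubiquitin ligase. When oxygen is low, the alpha subunits persist, pair with Arnt and bind hypoxia response elements in DNA. The genes they induce raise glucose uptake and glycolysis, divert pyruvate from mitochondria, signal to blood vessels and feed back on the pathway. Car9 (a carbonic anhydrase), Slc2a1 (a glucose transporter), Ndrg1 and Ankrd37 (stress-induced and hypoxia-induced genes) and Egln3 (a sensor that is itself induced) are such targets. Pancreatic tumours are known for poor perfusion and for hypoxic regions.

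The core of a hypoxia response element is ACGTG or GCGTG, and both were searched on both strands of the 250 bases before each RefSeq transcription start (GRCm38.p6). The sequences shown are of 2 score genes, which set the classes, of 4 genes higher in the hypoxia-high tumours, and of 2 histone genes lower in them. Capitals mark ACGTG or GCGTG, or their complements CACGT and CACGC, in the first 6, and CCAAT or its complement ATTGG, an element of many histone and cell cycle promoters, in the last 2. Each runs 5′ to 3′ on the gene's strand and ends at the base before the start.
Car9 (chr4:43506996-43507025, plus strand): ctatttccgatgCACGTacagcccgtccac
Ankrd37 (chr8:45999851-45999980, minus strand): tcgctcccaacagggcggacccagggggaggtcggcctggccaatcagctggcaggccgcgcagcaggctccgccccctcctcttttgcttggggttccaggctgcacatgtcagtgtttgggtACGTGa
Bnip3 (chr7:138909507-138909636, minus strand): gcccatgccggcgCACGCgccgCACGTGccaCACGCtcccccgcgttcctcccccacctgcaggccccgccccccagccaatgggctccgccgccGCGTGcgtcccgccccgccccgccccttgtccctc
Ero1a (chr14:45318573-45318702, minus strand): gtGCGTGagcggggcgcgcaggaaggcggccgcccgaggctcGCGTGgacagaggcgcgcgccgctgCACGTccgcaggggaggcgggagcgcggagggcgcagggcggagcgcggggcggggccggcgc
Pdk1 (chr2:71873094-71873223, plus strand): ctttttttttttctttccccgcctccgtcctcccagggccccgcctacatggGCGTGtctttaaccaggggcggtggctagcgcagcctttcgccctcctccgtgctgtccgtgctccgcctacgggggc
Unc13a (chr8:71671758-71671887, minus strand): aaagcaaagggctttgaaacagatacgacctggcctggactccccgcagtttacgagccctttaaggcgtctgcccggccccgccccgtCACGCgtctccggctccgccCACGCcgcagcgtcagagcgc
H2ac10 (chr13:23533745-23533874, plus strand): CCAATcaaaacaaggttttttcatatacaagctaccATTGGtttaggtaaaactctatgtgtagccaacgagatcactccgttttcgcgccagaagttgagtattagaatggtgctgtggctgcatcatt
H2ac11 (chr13:22042950-22043079, minus strand): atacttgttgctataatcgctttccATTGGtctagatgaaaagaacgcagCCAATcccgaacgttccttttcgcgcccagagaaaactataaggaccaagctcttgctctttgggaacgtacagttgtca
Only 30 bases are shown for Car9, since the bases before its RefSeq start lie inside the first exon of a GENCODE transcript.

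The shown windows of Bnip3 and Ero1a hold 5 and 3 positions of the ACGTG or GCGTG core, where the palindrome CACGTG of Bnip3 counts at both of its overlapping positions. Those of Unc13a hold 2, and those of Ankrd37, Car9 and Pdk1 hold 1. The table has another Pdk1 promoter, not shown, whose window of the same length holds 0. The core is short and common: 38.6% of the 32851 promoters in the table and 50.9% of the 16833 promoters of tested genes hold it. Among the 67 genes higher in the hypoxia-high tumours, 52 matched the table, and 64.8% of their 71 promoters hold the core. Of the 14 listed HIF target and glycolysis genes among them 13 matched, and 59.1% of their 22 promoters hold it. Of the 126 lower genes 109 matched, and 50.8% of their promoters hold it. CCAAT was found in 34.8% of the promoters of tested genes, in 28.2% of those of higher genes and in 62.1% of those of lower genes. The 4 higher genes shown were chosen by no fixed rule, and not all leading genes have one: neither promoter of Vldlr or Tnfrsf9 holds the core, and 1 of the 2 promoters of each of Vegfa, Hilpda and Pgf lacks it. A match describes letters in this window and marks no binding site.

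The score separated the classes by different amounts in the 4 groups. In the carbon-ion controls, the hypoxia-high libraries lay at 5.48 to 5.83 and the hypoxia-low libraries at 4.49 to 5.31. In the carbon-ion irradiated tumours they lay at 5.74 to 6.84 and at 4.87 to 5.64, and this group had the narrowest gap at the class boundary, 0.094. Photon controls spanned 5.15 to 6.01 and 4.70 to 4.96, and photon-irradiated tumours 5.61 to 6.65 and 4.96 to 5.46. Because the boundary was set in each group, the classes overlap across groups: 7 hypoxia-low libraries scored above the lowest hypoxia-high score. The 4 highest scores of all, from 6.57 to 6.84, belonged to irradiated tumours, 2 from each beam.

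**Figure D1:**
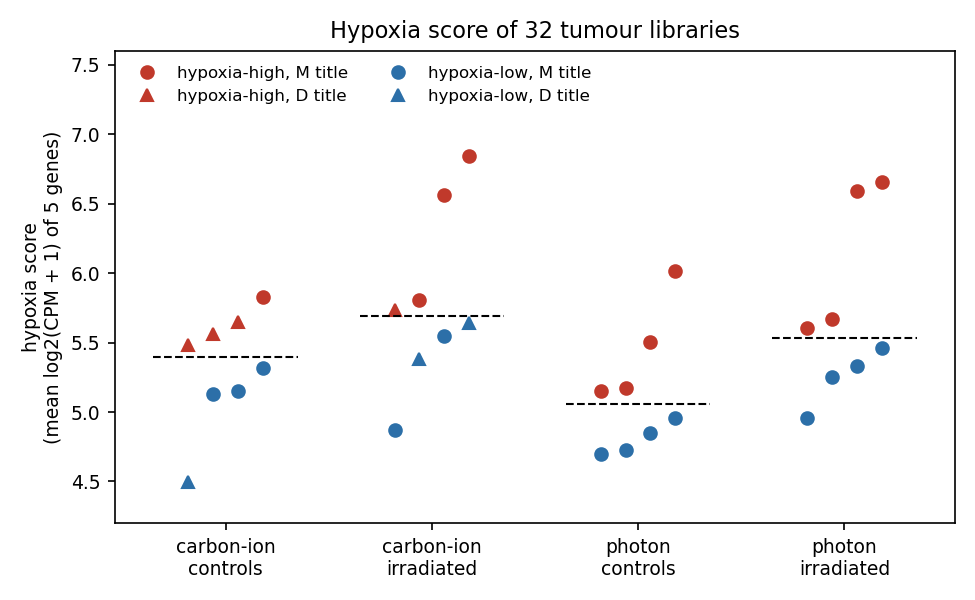
Hypoxia score (mean log2(CPM + 1) of 5 genes, vertical axis) of each of the 32 libraries, by treatment group, with red for hypoxia-high and blue for hypoxia-low and the symbol for the title letter. The dashed line is the midpoint between the classes of a group; the gap is narrowest, 0.094, in the carbon-ion irradiated tumours.

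Each of the 5 score genes had a higher median in the hypoxia-high tumours, though none separated the classes alone. Car9 ranged from 19.1 to 173 CPM with a median of 60.9 in the hypoxia-high tumours, and from 16.1 to 83.9 with a median of 28.7 in the hypoxia-low tumours. Ndrg1 had medians of 234 and 157 CPM, Egln3 of 46.5 and 33.8, and Slc2a1 of 127 and 94.9. Ankrd37 was scarce, with medians of 3.52 and 1.95 CPM. Their log2 fold changes lay between 0.65 (Slc2a1) and 0.98 (Ankrd37). Leaving any 1 of the 5 out of the score, or averaging z values in place of log2 CPM, changed no library's class.

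Library totals ran from 13892423 to 71645740 counts, and the classes did not differ beyond the permuted spread in total count, in genes detected, in the share of mitochondrial counts or in the share held by the 100 most abundant genes (adjusted exact permutation p of 0.495 to 0.690, two-sided, over 24010000 reassignments within groups). The mitochondrial share was 0.92% to 3.22% in the hypoxia-high and 0.76% to 2.46% in the hypoxia-low tumours. The titles begin with either D or M, which is left unexplained. The hypoxia-high class held 4 D and 12 M titles and the hypoxia-low class 3 and 13, and the D titles were all in the carbon-ion arm. In carbon_ctrl the letter went with the class, with 3 D and 1 M among the hypoxia-high and 1 D and 3 M among the hypoxia-low libraries; with the letter as a covariate 172 genes passed in the comparison of all groups, against 193 without it, and in M-titled libraries alone 25 passed, 18 higher and 7 lower. Replicate numbers were given here in accession order within a group, are not the submitters' and pair no libraries. Replicates of a group differed by more than sampling noise in every pair.

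Across 21514 tested genes, 193 passed an adjusted p of 0.05 between the classes, or 0.897% of those tested. Of these, 67 (0.311%) were higher and 126 (0.586%) lower in the hypoxia-high tumours. The differences were modest, with 12 genes past 2-fold, and the median log2 fold change over all tested genes was -0.0025. At an unadjusted p under 0.05, 1347 genes (6.26%) were higher and 1952 (9.07%) lower. Genes of glucose metabolism and of signalling to vessels stood among the higher genes, and histone and replication genes among the lower.

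The number of genes past the threshold depended on single libraries. Without replicate 4 of the photon-irradiated tumours (title M098), a hypoxia-low library, 9 genes passed, and without replicate 5 of the carbon-ion irradiated tumours (M008), a hypoxia-high library, 473 passed. When the score was computed with TMM scaling of the library totals, replicates 1 and 2 of the carbon-ion irradiated tumours (D017 and D045) exchanged classes and 22 genes passed, 21 of them higher. Among other calls named from the lists, Hk2 and Rrm1 passed in 22 of the 32 refits that each left out 1 library, Fen1 and Ier3 in 21 and Hspd1 in 24. The counts given for groups of genes are therefore tied to this split.

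**Figure D2:**
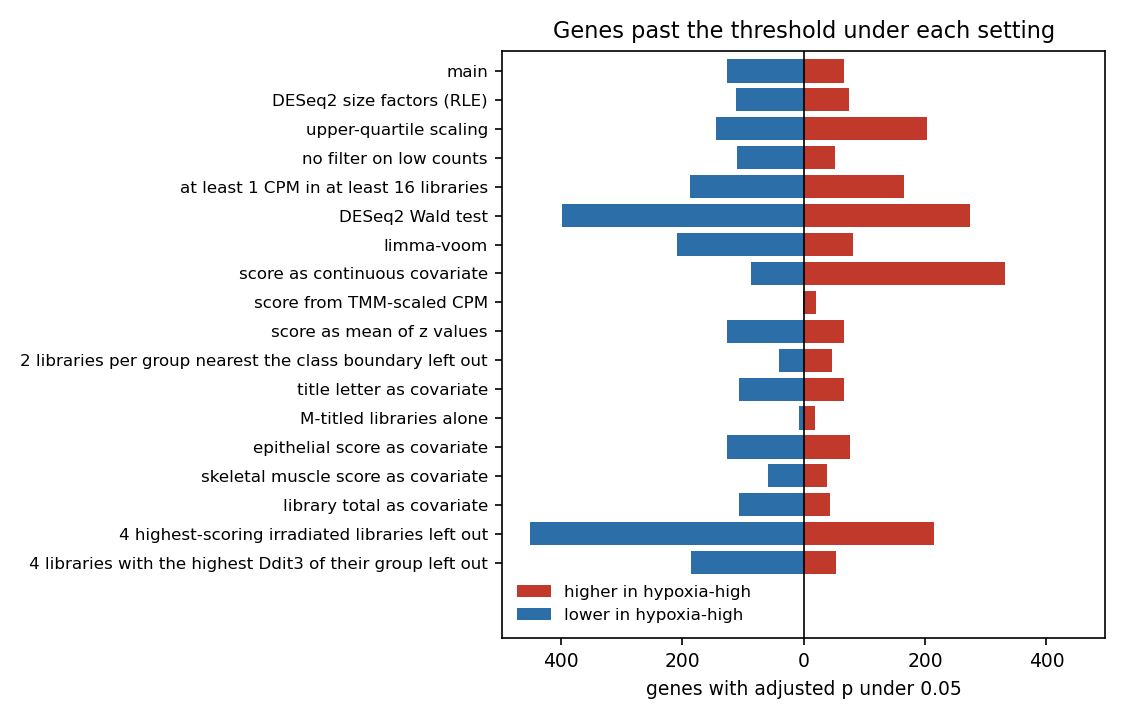
Genes with an adjusted p under 0.05 (horizontal axis) in each setting (vertical axis), with red bars to the right for genes higher and blue bars to the left for genes lower in the hypoxia-high tumours. The bars run from 22 genes with the TMM-scaled score to 672 with the DESeq2 Wald test; the first bar holds the 67 higher and 126 lower genes of the text.

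Among the parts of the oxygen-sensing pathway itself, 1 of 14 tested genes passed. Egln1, the main sensor hydroxylase and a known target of the pathway (chr8:124908587-124949324, minus strand), rose. It ranged from 58.9 to 196 CPM with a median of 95.8 in the hypoxia-high tumours and from 61.8 to 100.5 with a median of 76.3 in the hypoxia-low tumours. The classes overlapped in all 4 groups, and the log2 fold change was 0.45 ± 0.11 (SE, n = 16 and 16, edgeR adjusted p = 0.0422). Its call was lost when any 1 of 13 libraries was left out, and it passed in 15 of 22 other alternatives (edgeR, DESeq2 or limma adjusted p of 7.74e-07 with the continuous score to 0.138 without the 4 highest-scoring irradiated libraries).

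The alpha subunits, which are controlled mainly as proteins, did not pass in RNA. Hif1a had medians of 237 CPM in the hypoxia-high and 228 in the hypoxia-low tumours (log2 fold change 0.07, edgeR adjusted p = 0.721). Epas1 had medians of 67.1 and 73.1 CPM (log2 fold change -0.09, edgeR adjusted p = 0.799). That value averages opposite signs: within groups Epas1 had -0.44 in carbon_ctrl and -0.71 in carbon_treated, against 0.48 in photon_ctrl and 0.28 in photon_treated, and edgeR's test of the difference between the 4 groups gave an unadjusted p of 0.00285 and an adjusted p of 0.823. Their partner Arnt (0.06), the ligase Vhl (0.06), the sensor Egln2 (-0.01), the asparaginyl hydroxylase Hif1an (0.07) and the coactivators Crebbp (0.05) and Ep300 (0.10) had log2 fold changes near 0. Cited2, a target that competes with the alpha subunits for those coactivators, had a log2 fold change of 0.30 (edgeR adjusted p = 0.160). Arnt2 (-0.25) and Hif3a (0.41), both near or under 1.5 CPM in the median, had standard errors of 0.23 and 0.52 and did not pass, and Siah1a and Siah2, ubiquitin ligases for the sensors, had values of 0.01 and -0.01.

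Of 35 other HIF targets tested, 10 rose and none fell. The median log2 fold change of the list was 0.27 against -0.0025 over all tested genes, and 31 of 35 values were positive. At an unadjusted p under 0.05, 23 were higher, against 6.26% of all tested genes. The 10 were Vegfa, Vldlr, Ero1a, Bnip3, Kdm3a, Hilpda, Mxi1, Kdm4b, Pfkfb3 and Gys1. With the TMM-scaled score 8 members of the list passed, and without replicate 4 of the photon-irradiated tumours 3 passed.

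Vegfa, the principal growth factor for blood vessels (chr17:46016993-46032369, minus strand), was higher in every hypoxia-high library than in any hypoxia-low library of its group in 3 of the 4 groups. In the photon-irradiated tumours the hypoxia-high values were 240, 313, 361 and 388 CPM and the hypoxia-low values 97.9, 162, 182 and 208. In the carbon-ion irradiated tumours they were 260, 280, 287 and 496 CPM against 140, 163, 164 and 171. In the photon controls they were 150, 165, 209 and 292 CPM against 99.6, 100.1, 117.3 and 142. Overlap remained in the carbon-ion controls, where the lowest hypoxia-high library held 140 CPM and the highest hypoxia-low library 171. Over all groups Vegfa rose by a log2 fold change of 0.89 ± 0.12 (SE, n = 16 and 16, edgeR adjusted p = 0.000209). Of all tested genes, 180 (0.837%) kept the classes apart in at least 2 groups, 5 (0.0232%) in at least 3, and none in all 4.

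Bnip3, a mitochondrial outer membrane protein that drives the removal of mitochondria by autophagy (chr7:138890836-138909519, minus strand), had the largest fold change of the list among those that passed. It ranged from 33.0 to 265 CPM with a median of 74.4 in the hypoxia-high tumours and from 11.1 to 123 with a median of 39.8 in the hypoxia-low tumours. The log2 fold change was 1.19 ± 0.23 (SE, n = 16 and 16, edgeR adjusted p = 0.0223). Its promoter window, shown above, holds the most core positions of those printed. Bnip3l, its close relative, had a log2 fold change of 0.26 and did not pass (edgeR adjusted p = 0.249).

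Vldlr, a lipoprotein receptor that takes up triglyceride-rich particles (chr19:27216484-27254231, plus strand), had medians of 30.3 and 20.1 CPM. Its classes lay apart in both irradiated groups and in the photon controls, and the log2 fold change was 1.002 ± 0.17 (SE, edgeR adjusted p = 0.00650). Ero1a, the oxidase that supplies disulfide bonds in the endoplasmic reticulum (chr14:45283087-45318771, minus strand), had medians of 99.4 and 69.2 CPM and no overlap in 2 groups. Its log2 fold change was 0.94 ± 0.17 (SE, edgeR adjusted p = 0.0138). Hilpda, which coats lipid droplets and restrains lipolysis, had a log2 fold change of 0.81 (edgeR adjusted p = 0.0265). Hilpda ran from 18.6 to 87.8 CPM in the hypoxia-high and from 18.4 to 46.2 in the hypoxia-low tumours, and its classes overlapped in all 4 groups.

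The remaining members of the list that passed had smaller changes. The histone demethylases Kdm3a and Kdm4b, which need oxygen as a substrate, had log2 fold changes of 0.39 and 0.37. Mxi1, a repressor that competes with Myc for its partner, had 0.46, and Pfkfb3 and Gys1, which stimulate glycolysis and store glucose as glycogen, had 0.41 and 0.40. Adm, the vasodilator peptide adrenomedullin, had the highest value of the list, 1.28, and missed the threshold (edgeR adjusted p = 0.0517), with medians of 5.93 and 2.60 CPM. The 4 negative members were Ppp1r3c (-0.78), Car12 (-0.19), Rab20 (-0.13) and Anxa2 (-0.02), and none of them passed.

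**Figure D3:**
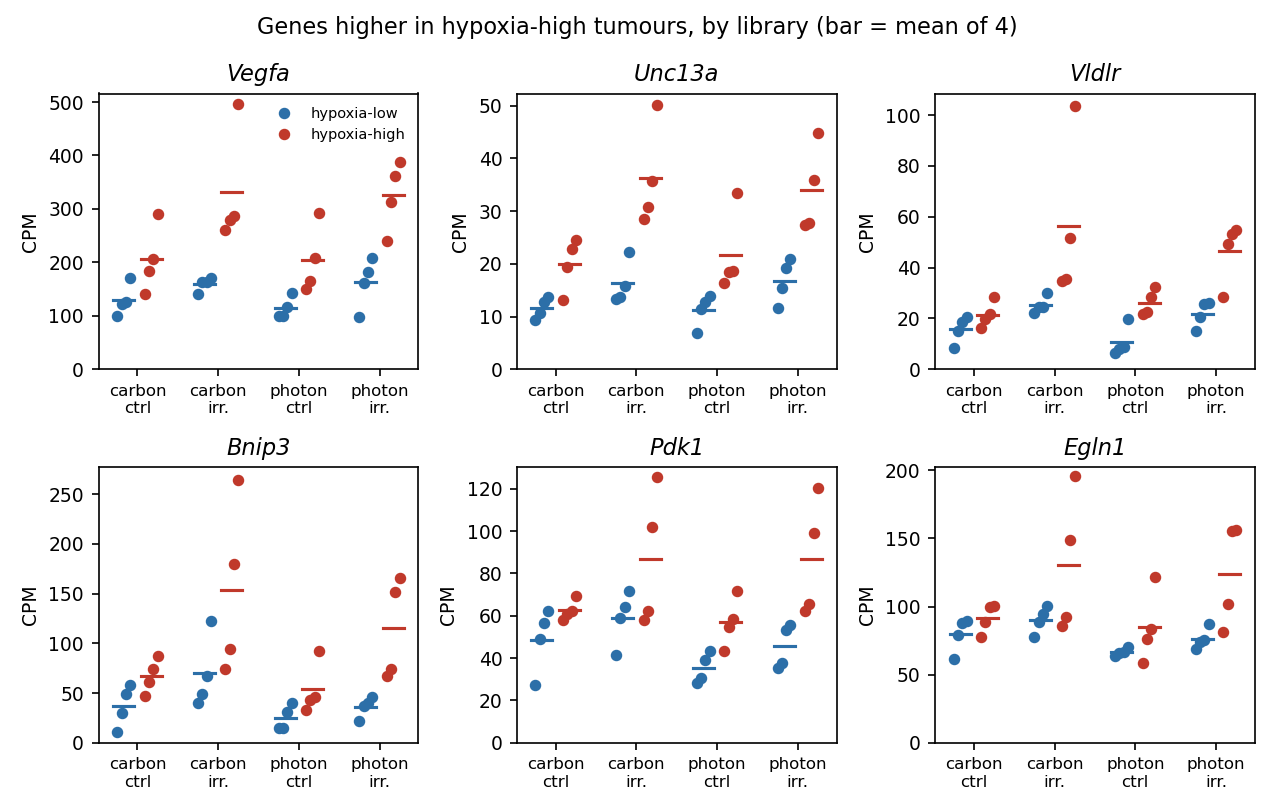
CPM (vertical axes, starting at 0) of 6 genes that were higher in the hypoxia-high tumours, in each library, by treatment group; bars are means of 4 libraries, red for hypoxia-high and blue for hypoxia-low. For Vegfa, Unc13a and Vldlr the classes lie apart in 3 of 4 groups, and for Egln1 they overlap in all 4.

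Of 21 glycolytic genes tested, 4 rose and none fell, with a median log2 fold change of 0.25 and 18 positive values. At an unadjusted p under 0.05, 12 were higher, against 6.26% of all tested genes. Hk2, the hexokinase that traps glucose, had medians of 165 and 139 CPM (log2 fold change 0.51, edgeR adjusted p = 0.0370). The phosphofructokinase subunits Pfkl (0.53, edgeR adjusted p = 0.0265) and Pfkp (0.59, edgeR adjusted p = 0.0328) rose, whereas the third subunit, Pfkm, had a value of -0.18 that did not pass. Pdk1, which shuts pyruvate out of the mitochondrial citrate cycle, had medians of 62.2 and 46.2 CPM and a log2 fold change of 0.64 ± 0.13 (SE, edgeR adjusted p = 0.0235).

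Among the enzymes that did not pass, Gapdh had medians of 1861 and 1580 CPM (log2 fold change 0.28), Pgk1 of 584 and 412 (0.41), Eno1 of 900 and 795 (0.19) and Ldha, which makes lactate, of 556 and 503 (0.15), with edgeR adjusted p of 0.144 to 0.485. The lactate exporter Slc16a3 had a value of 0.54 and an adjusted p of 0.110. With the score as a continuous covariate 16 of the 21 were higher, and with the TMM-scaled score 3 were.

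Signals to blood vessels rose on the side of 1 ligand and 1 receptor beside Vegfa. Of 18 further angiogenic ligands and receptors tested, 2 rose and none fell, and the median was 0.07. Pgf, placental growth factor, had medians of 12.4 and 6.27 CPM and a log2 fold change of 0.95 ± 0.22 (SE, edgeR adjusted p = 0.0349). It passed in 24 of the 32 refits that each left out 1 library and in 15 of 22 other alternatives, with adjusted p of up to 0.119. Flt1, the receptor that binds both Pgf and Vegfa, had medians of 119.2 and 84.0 CPM, no overlap in 2 groups, and a value of 0.51 ± 0.10 (SE, edgeR adjusted p = 0.0148). The main signalling receptor Kdr had -0.13, Vegfb 0.00, Vegfc 0.07, Vegfd -0.50 and Angpt2 0.19, none of which passed. Nearest to the threshold without passing were Flt4 (0.33, edgeR adjusted p = 0.0862) and Angpt1 (-0.44, edgeR adjusted p = 0.0874). Of 12 endothelial markers 0 passed, 10 were positive and the median was 0.08. The junction gene Cldn5 came closest (0.78, edgeR adjusted p = 0.0556) and passed in 6 of 22 alternatives. The summed level of the 12 was 264 to 790 CPM in the hypoxia-high and 232 to 536 in the hypoxia-low tumours.

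The smallest p of the comparison belonged to a gene outside the textbook response. Unc13a, which primes synaptic vesicles in neurons (chr8:71624417-71671757, minus strand), had hypoxia-high values of 28.5, 30.8, 35.7 and 50.2 CPM in the carbon-ion irradiated tumours, against 13.4, 13.7, 15.8 and 22.2. In the photon controls the values were 16.4, 18.5, 18.7 and 33.4 against 6.97, 11.5, 12.8 and 13.9. In the photon-irradiated tumours they were 27.4, 27.7, 35.9 and 44.8 against 11.6, 15.5, 19.2 and 21.0. Only in the carbon-ion controls did the classes overlap, by 1 library of 13.05 CPM below the highest hypoxia-low value of 13.7. The log2 fold change was 0.97 ± 0.12 (SE, n = 16 and 16, edgeR adjusted p = 0.000137). Colgalt1 overlaps part of the gene, had a log2 fold change of -0.02 (edgeR adjusted p = 0.905), and could share reads with it. Pfkp, Tnfrsf9, Hk2 and Bnip3 also overlap genes of the opposite strand, and the handling of strand is not given in the sources used here.

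Syt17, of the synaptotagmin family of membrane traffic proteins, had medians of 9.28 and 6.40 CPM and a log2 fold change of 0.57 ± 0.09 (SE, edgeR adjusted p = 0.00460). Maff, a small Maf transcription factor, had 0.40 ± 0.07 (SE, edgeR adjusted p = 0.0148). Tnfrsf9, a costimulatory receptor best known from activated lymphocytes, had medians of 26.1 and 15.7 CPM and a value of 0.67 (edgeR adjusted p = 0.0265). T cell markers were low in both classes, with a summed level of 7.68 to 29.98 CPM in the hypoxia-high and 8.34 to 25.5 in the hypoxia-low tumours, and 0 of 13 passed. Ier3, an early response gene that protects against cell death, rose by 0.37 and was the only 1 of 13 immediate early genes to pass (edgeR adjusted p = 0.0397).

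Ddit3, which encodes the stress factor CHOP, was high in a single library of each group, and all 4 were hypoxia-high. Those libraries held 25.8, 37.8, 15.2 and 36.8 CPM, while the other 28 ranged from 3.59 to 12.4 with a median of 5.64. The log2 fold change of 1.17 (edgeR adjusted p = 0.0298) fell to 0.36 without them (adjusted p = 0.0982, in a range of 0.00119 to 0.132 over the alternatives). Trib3, Atf3 and Chac1, which act with or below it, were not raised in the same way: outside the carbon-ion irradiated library, where Trib3 held 13.5 and Atf3 13.4 CPM against highest values of 12.9 and 12.5 elsewhere, they lay within the range of the other 28 libraries. Ddit3 overlaps Mars1 on the opposite strand, and Mars1 held 39.6 to 57.8 CPM in the 4 libraries against 39.7 to 66.2 in the rest. Ddit3 was the only 1 of 20 genes of the integrated stress and unfolded protein response to pass, and the median of that list was 0.02.

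The lower genes were led by histones. Among genes that passed with a mean log2 CPM of at least 2, the 10 lowest log2 fold changes all belonged to histone genes of chromosome 13, from -0.93 (H2ac7) to -0.69 (H2bc14). H2ac10 (chr13:23533906-23534304, plus strand) had hypoxia-high values of 5.51, 8.64, 9.96 and 15.9 CPM in the photon controls against 18.8, 21.8, 22.4 and 24.0. In the photon-irradiated tumours they were 3.77, 4.76, 6.58 and 10.4 CPM against 8.15, 10.3, 12.7 and 18.9. The classes were apart in the photon controls and overlapped in the other 3 groups. How many of all tested genes lie apart in a single group was not counted. The log2 fold change of H2ac10 was -0.84 ± 0.15 (SE, n = 16 and 16, edgeR adjusted p = 0.0138). H2ac11 had medians of 8.71 and 16.8 CPM (-0.78, edgeR adjusted p = 0.0226). It lies head to head with H2bc11, which had medians of 30.4 and 48.9 CPM (-0.73, edgeR adjusted p = 0.0297), and the window printed for H2ac11 lies between them.

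H3c7 had medians of 80.3 and 120 CPM and a log2 fold change of -0.63 ± 0.13 (SE, edgeR adjusted p = 0.0235). Counted after their values were seen, 64 genes with replication-dependent histone symbols were tested, of which 35 fell and 0 rose. They made up 27.8% of all lower genes. Their median was -0.60, and 63 of 64 were negative, the exception being H2ac19, at or under 0.25 CPM in the median of either class. Their summed level was 1267 to 3876 CPM with a median of 2379 in the hypoxia-high tumours, and 2195 to 4724 with a median of 3574 in the hypoxia-low tumours. Of the 35 that fell, 33 matched the promoter table, and CCAAT was found in 94.1% of their 34 promoters, against 34.8% for tested genes. With the TMM-scaled score a single gene of any kind was lower, H2ac10 missed the threshold (edgeR adjusted p = 0.0897, in a range of 5.47e-05 to 0.0897 over the alternatives), and the median of the histone genes stayed negative. Without replicate 4 of the photon-irradiated tumours, H2ac10 was the 1 lower gene that passed. These genes are near-identical copies whose reads may be divided between them, and their transcripts mostly lack the poly(A) tail that mRNA kits capture. Whether capture differed between libraries was not tested.

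Mitotic genes lay below 0 throughout. Of 20 tested, 4 fell and none rose, all 20 were negative, and all 20 had an unadjusted p under 0.05, against 9.07% of tested genes that were lower at that level. Kif11, the spindle motor, had medians of 53.2 and 76.3 CPM and a log2 fold change of -0.49 ± 0.10 (SE, edgeR adjusted p = 0.0265). Top2a (-0.48), which untangles DNA, Ccnb1 (-0.48) and Cdk1 (-0.50), the cyclin and kinase that start mitosis, were the other 3. Of the 32 refits that each left out 1 library, Kif11 passed in 30, Top2a in 21, Ccnb1 in 15 and Cdk1 in 8. The proliferation marker Mki67 had -0.45 and missed the threshold (edgeR adjusted p = 0.0832).

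DNA replication genes had values of similar size. Of 20 tested, 7 fell and none rose, all 20 were negative with an unadjusted p under 0.05, and the median was -0.34 against -0.42 for mitosis. Prim1, the primase that starts each new strand, had medians of 10.2 and 15.1 CPM and a value of -0.57 ± 0.11 (SE, edgeR adjusted p = 0.0235). The helicase subunits Mcm3 (-0.43) and Mcm5 (-0.52), the loader Cdc6 (-0.51), the nuclease Fen1 (-0.39) and the nucleotide enzymes Rrm1 (-0.34) and Tyms (-0.44) also fell. The other members, among them Pcna (-0.34) and Mcm2 (-0.29), did not pass. With the TMM-scaled score no mitotic or replication gene passed, and with the score as a continuous covariate 1 of each list did. In every alternative other than leaving out 1 library, for which this was not counted, all 20 members of either list stayed negative.

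**Figure D4:**
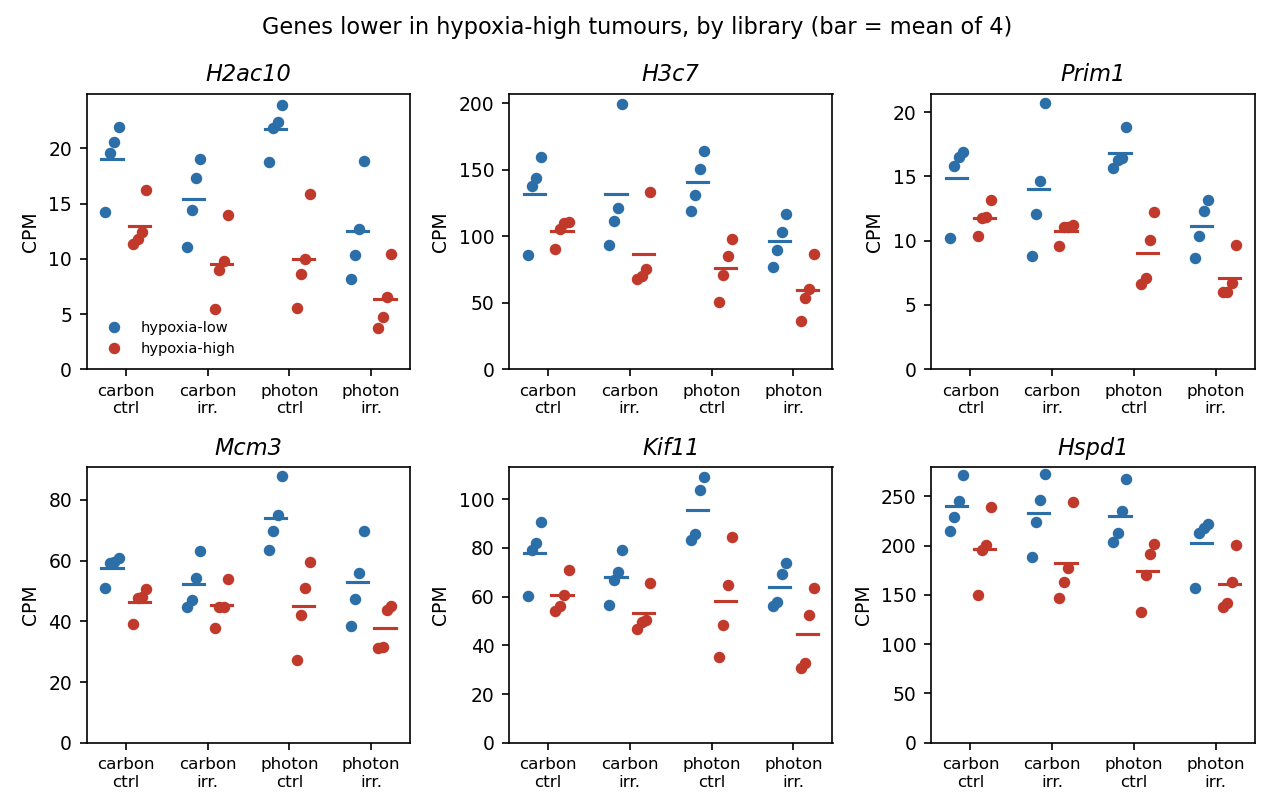
CPM (vertical axes, starting at 0) of 6 genes that were lower in the hypoxia-high tumours, in each library, by treatment group; bars are means of 4 libraries, red for hypoxia-high and blue for hypoxia-low. H2ac10 lies apart by class in the photon controls and overlaps in the other 3 groups. The share of all genes apart in a single group was not counted.

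The nuclear and mitochondrial genes of the respiratory chain had medians of opposite sign, and no listed member of either passed. The list of nuclear genes leaves out Atp5g1 and Atp5g3, which encode a subunit of the ATP synthase and are named after their values were seen: both fell, with log2 fold changes of -0.31 (edgeR adjusted p = 0.0465) and -0.28 (edgeR adjusted p = 0.0450). Of the 32 listed nuclear genes of oxidative phosphorylation 31 were negative, with a median of -0.19. At an unadjusted p under 0.05, 16 of them were lower, against 9.07% of all tested genes. Sdhb, of complex II, had the smallest p of the list, with medians of 40.1 and 48.4 CPM (-0.29, edgeR adjusted p = 0.0777). Of 13 mitochondrially encoded genes 12 were positive, with a median of 0.17 and 1 unadjusted p under 0.05. In the alternatives other than leaving out 1 library, the first median ranged from -0.24 to -0.02 and the second from 0.17 to 0.34. The heat shock gene Hspd1, a mitochondrial chaperone, fell by 0.34 (edgeR adjusted p = 0.0329), the only 1 of 12 heat shock genes to pass.

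Markers of other cells were examined for their share in the split. Epithelial markers had 0 of 14 past the threshold, a median of -0.04 and a summed level of 2891 to 5283 CPM in the hypoxia-high and 3264 to 5646 in the hypoxia-low tumours. Fibroblast and matrix genes had 0 of 14, all negative, with a median of -0.13. Macrophage and monocyte markers had 0 of 14 and a median of -0.23, with Ccr2, a monocyte receptor, closest to the threshold (-0.64, edgeR adjusted p = 0.0548). B and plasma cell, erythroid and pancreatic acinar markers were low, with summed levels of at most 22.0 CPM.

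The lowest medians of all lists were those of muscle and fat. Skeletal muscle genes had a median of -0.81, 12 of 14 negative and 0 past the threshold, and their summed level ran from 38.1 to 3905 CPM in the hypoxia-high and from 20.2 to 8869 in the hypoxia-low tumours. Adipocyte genes had a median of -1.05, 9 of 10 negative and 0 past the threshold, with a summed level of 33.1 to 139 CPM (median 59.7) against 35.9 to 581 (median 76.1). A single library weighed on these values: without replicate 5 of carbon_ctrl, Adipoq (adiponectin) moved from -2.27 to -1.17, Plin1, which coats lipid droplets, from -2.27 to -1.31, and Cfd (adipsin) from -2.63 to -1.61. Ckm was at 0 in at least 1 library of each class, as was Adipoq. With the muscle score as a covariate, 97 genes passed, 39 higher and 58 lower, all among the 193. With the epithelial score as a covariate, 203 passed. The classes lay apart for Ckm, muscle creatine kinase, in the photon controls alone. It had 0.55, 0.78, 8.82 and 37.1 CPM there in the hypoxia-high against 156, 158, 187 and 208 in the hypoxia-low libraries. The share of all tested genes that lie apart in a single group was not counted. The log2 fold change of Ckm in edgeR was -3.95 in photon_ctrl, -0.24 in carbon_ctrl, -1.73 in carbon_treated and 0.04 in photon_treated. The differences of mean log2 CPM were -5.61, 1.39, -0.80 and 0.43 in the same order, so the sign in carbon_ctrl depends on the measure. Over all groups it was -1.38, and it moved to -0.83 without replicate 3 of carbon_treated and to -2.30 without replicate 1 of photon_treated, with no adjusted p under 0.281. The part of fat in the other differences was not tested.

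**Figure D5:**
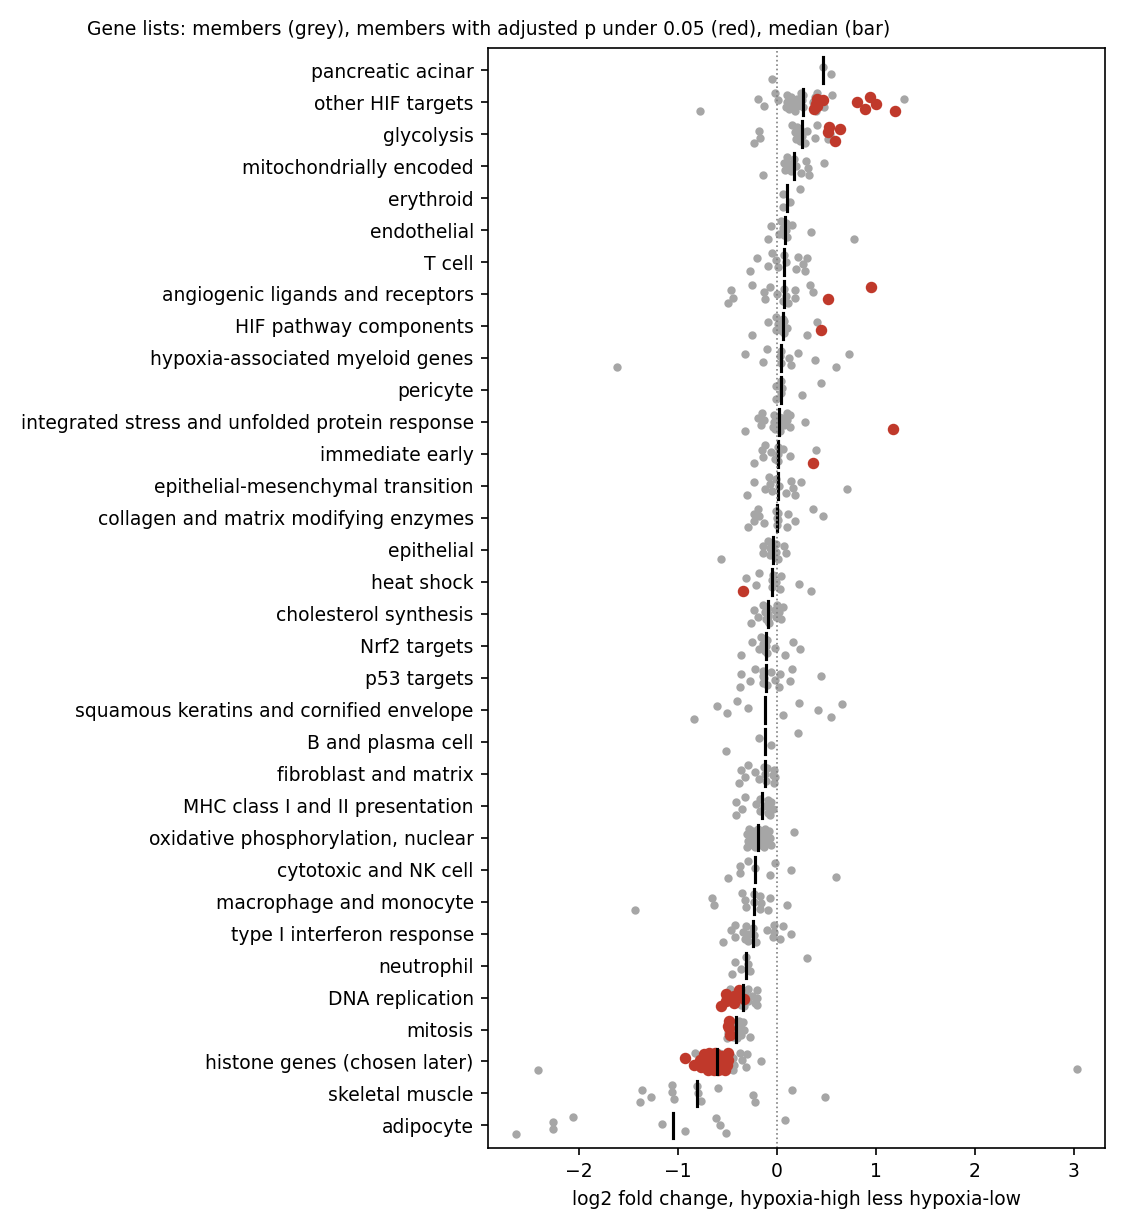
Log2 fold change, hypoxia-high less hypoxia-low (horizontal axis), of the tested members of each gene list (rows, ordered by median); grey points did not pass, red points passed an adjusted p of 0.05, and the bar is the median. Red points lie to the right in HIF targets (10) and glycolysis (4) and to the left in DNA replication (7), mitosis (4) and the histone genes counted after their values were seen (35).

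The remaining lists gave no calls. Cholesterol synthesis (0 of 18, median -0.09), Nrf2 targets (0 of 14, -0.11), p53 targets (0 of 16, -0.12), type I interferon response (0 of 19, -0.24), antigen presentation by MHC (0 of 14, -0.15) and cytotoxic cells (0 of 9, -0.22) had no member past the threshold. Collagen-modifying enzymes had 0 of 16 and a median of 0.00, with the prolyl hydroxylases P4ha2 (0.47, edgeR adjusted p = 0.0883) and P4ha1 (0.37, edgeR adjusted p = 0.109) nearest to the threshold. Genes of epithelial-mesenchymal transition (0 of 14), hypoxia-associated myeloid genes (0 of 13), pericyte markers (0 of 7) and squamous keratins (0 of 10) had medians of 0.01, 0.04, 0.04 and -0.12. Neutrophil markers (0 of 7) had a median of -0.32, and Cdkn1a, the p53-induced cell cycle inhibitor, had 0.44 (edgeR adjusted p = 0.262).

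Within single treatment groups, with 4 libraries against 4, no gene passed in any of the 4 groups. In edgeR the smallest adjusted p was 0.400 for carbon_ctrl, 0.304 for carbon_treated, 0.220 for photon_ctrl and 0.541 for photon_treated, and 835, 1916, 2137 and 1164 genes had an unadjusted p under 0.05. Vegfa had log2 fold changes of 0.67, 1.05, 0.83 and 1.003 in the same order, Bnip3 of 0.86, 1.14, 1.09 and 1.67, and Prim1 of -0.33, -0.39, -0.90 and -0.65. Without replicate 3 of the photon controls, a hypoxia-high library, 152 genes passed within that group, and leaving out 1 library gave at most 1 gene within either carbon-ion group and 0 within photon_treated.

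No gene passed the threshold in the tests of whether the class difference itself differed between the 4 groups, or between irradiated and untreated tumours. With 4 libraries against 4 in each group, this does not show that the differences are equal. In edgeR's test with 3 degrees of freedom the smallest adjusted p was 0.823, with 1020 genes at an unadjusted p under 0.05 and Itgax and Tmeff2 at the smallest p. Itgax, an integrin of dendritic cells and macrophages, had log2 fold changes of 0.19, 0.46, -0.20 and -0.53 for carbon_ctrl, carbon_treated, photon_ctrl and photon_treated. Tmeff2 had -0.47, -0.96, 1.36 and 0.56. For irradiated against untreated tumours 546 genes had an unadjusted p under 0.05, and Tril and Epha3 had the smallest p, with differences of -1.60 and -1.75. Without the 4 irradiated libraries that scored above all untreated ones, 665 genes passed between the classes, 214 higher and 451 lower.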

How the data were processed

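The authors deposited expected counts per gene for 32 libraries. Per the submitters' processing notes, FastQC 0.12.0, Trimmomatic 0.32, RSEM 1.3.3 and the build mm10 were used; the annotation and handling of strand are not given in the sources used here. Per the labels' protocols, RNA came from tumour kept in RNAlater and libraries from an Illumina stranded mRNA kit. Expected counts were rounded, which changed totals by at most 0.00403%. Of 55103 row symbols, 49130 were in a mouse gene name table. Genes were filtered by filterByExpr (minimum count 10, treatment group by class), scaled by TMM and tested with edgeR 4.0.16 (R 4.3.3) quasi-likelihood F tests, with group as a block. P-values were Benjamini-Hochberg adjusted over 21514 genes, without the 5 score genes, with a threshold of 0.05. CPM by gene uses totals of the filtered counts scaled by TMM. The score and the summed levels of groups of genes use CPM by column total, without TMM. Library measures were compared by exact permutation within groups. Named genes were the score and pathway genes, the 10 highest and 10 lowest fold changes and the 6 smallest p in each direction among calls with mean log2 CPM of at least 2 and 1 sign in all groups, up to 4 genes per list by p, and the 2 with the smallest p of each test between groups. Others were chosen after their values were seen. The members and the 33 lists (503 genes, 501 in the file, 477 tested) were chosen with earlier results of these data known. Promoters are from RefSeq GRCm38.p6, and gene positions from GENCODE for GRCm38. Alternatives used RLE, upper-quartile scaling, other filters, DESeq2 1.42.0, limma 3.58.1 voom, other scores, covariates and omitted libraries. The script was tested on simulated data. Depth, 13892423 to 71645740 counts per library, sets the counting error.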

Additional observations from a re-analysis of the deposited data

Results flagged for a closer look

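Among 116 sets of 8 values (24 genes, the hypoxia score and the 4 library measures, each within a treatment group), 18 had 1 library set apart from the others by more than Dixon's 95% critical value for 8, 0.526. Chance alone flags about 1 in 20 sets only where the values are independent and normally distributed. The CPM were not log-transformed, the genes were chosen from the calls of this split, and every flagged library was the highest of its set. The number of flags therefore cannot be read as an excess over chance.

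Ddit3, the CHOP gene, had 1 high library in all 4 groups: 25.8 CPM in carbon-ion control replicate 1, 37.8 in carbon-ion irradiated replicate 4, 15.2 in photon control replicate 3 and 36.8 in photon-irradiated replicate 3, against at most 7.27, 8.60, 5.21 and 12.4 in the rest of each group. All 4 libraries were hypoxia-high.

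Carbon-ion irradiated replicate 4, the library with the highest hypoxia score, was also set apart for Vegfa (496 CPM against at most 287), Vldlr (104 against 51.7), Ero1a (333.1 against 189), Pgf (29.8 against 14.6) and Syt17 (13.8 against 9.31). Photon control replicate 4, which had the highest score of the untreated tumours, was set apart for Bnip3 (91.8 CPM against at most 46.4), Hilpda (77.3 against 30.6), Ero1a (196 against 83.3) and Unc13a (33.4 against 18.7). Tnfrsf9 held 44.2 CPM in photon-irradiated replicate 5 against at most 27.4.

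Carbon-ion irradiated replicate 2, a hypoxia-low library, was set apart for the histone genes H2ac4 (62.5 CPM against at most 36.1) and H2ac8 (20.6 against 12.7). It is 1 of the 2 libraries that exchange classes when the score is scaled by TMM. Carbon-ion irradiated replicate 7 had 71646000 counts in total, against at most 41890000 in its group, and in carbon-ion control replicate 7 the 100 most abundant genes held 29.7% of counts, against at most 24.0%.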

How the results depend on the processing

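No named gene reversed its sign past the threshold in any alternative. The 193 genes gave 348 under upper-quartile scaling (203 higher, 58.3% of calls against 34.7%), 352 with at least 1 CPM in 16 libraries (165 higher), 672 with the DESeq2 Wald test (274 higher, 398 lower), 291 with limma-voom (209 lower) and 418 with the score as a continuous covariate (332 higher). They gave 22 with the TMM-scaled score (21 higher, 1 lower), 86 without the 2 libraries of each group nearest the class boundary (40 lower), 25 in M-titled libraries alone (18 higher, 7 lower), 97 with the muscle score as a covariate (39 higher, 58 lower), and 43 higher genes with the library total as a covariate. Without the 4 highest-scoring irradiated libraries, an alternative chosen after seeing the data, as was the omission of the 4 libraries high in Ddit3, 665 passed (214 higher, 451 lower). Leaving out 1 library gave 9 to 473 genes, 8 to 143 higher and 1 to 330 lower; within groups it gave 0 to 1 in the carbon-ion controls, 0 to 1 in the carbon-ion irradiated tumours and 0 to 152 in the photon controls. RLE scaling gave 186, no filter 160 and the title letter as a covariate 172. The causes were not tested. Of the 193 genes, 67 were also called with the continuous score and 18 with the TMM-scaled score. Bnip3, Vldlr, Unc13a, Ero1a, Vegfa, Pdk1, Maff and Pfkl passed in all 22 alternatives that did not leave out 1 library, 6 of which were scores that changed no class. No paired analysis was possible because the labels give no replicate numbers; those printed here follow accession order and only name libraries.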
